A study of Mus musculus with 36 samples.

Results

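Histone lysine acetylation is written by acetyltransferases, removed by deacetylases and sirtuins, and read by proteins with a bromodomain, and 45 mouse genes of these families were followed in the anterior cingulate cortex (aCC). They were chosen by name from their families: 9 acetyltransferases, 4 class I deacetylases, 4 class IIa deacetylases, 3 deacetylases of classes IIb and IV, 7 sirtuins, 10 bromodomain readers and 8 bromodomain proteins of chromatin remodelling complexes. Brd1 and the acetyltransferase complex it belongs to were left out. Each of the 45 matched a single gene among the 52636 in the table, and all 45 passed the filter on low values, as did 25572 genes in total.

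The libraries came from 36 female mice of the strain C57BL/6NTac-Brd1, aged 8 to 11 weeks. Wild-type mice (WT) and mice with a heterozygous deletion of loxP-flanked Brd1 exons (Brd1+/-) had received subcutaneous injections on consecutive days of saline (vehicle) or of imipramine (IMN), a tricyclic antidepressant that inhibits reuptake of serotonin and noradrenaline, at 10 mg/kg. Of the WT mice, 8 received vehicle and 10 received IMN, and 9 Brd1+/- mice received each. Mice of every group had been through behavioural tests after injection, and RNA was taken from a frozen punch of the right aCC, a frontal midline region of the cortex.

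An acetyl group neutralises the positive charge of a lysine in the histone tail, and acetylated promoters and enhancers are a mark of transcribed chromatin. Acetyltransferases take the acetyl group from acetyl-CoA, the zinc-dependent deacetylases of classes I, II and IV hydrolyse it, and sirtuins remove it at the cost of NAD+. Bromodomains bind acetyl-lysine and bring remodellers and the transcription machinery to it, and in neurons the balance of writers and erasers is known to matter for activity-dependent transcription and memory.

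Values are given as TPM, the share of a library's transcripts that a gene accounts for after correction for its length. Excitatory cortical markers were present in every library: Slc17a7, the vesicular glutamate transporter, ranged from 395.5 to 1651.7 TPM. Of the choroid plexus markers, Folr1 and Otx2 had a median of 0 TPM. Brd1 itself was 68.5% of WT in Brd1+/- mice over both treatments (log2 fold change -0.55, limma adjusted p = 2.14e-05) and ranked first of all genes tested by p. It was at 64.2% of WT with vehicle (-0.64, adjusted p = 0.0620) and at 73.0% with IMN (-0.45, adjusted p = 0.882), first by p in each, though neither passed the adjusted threshold. A pair of vehicle libraries, called those at the edge of the tissue range, stood apart from their groups. The mean log2 level of 10 oligodendrocyte markers was 7.00 in WT vehicle replicate 1 (3.15 to 5.55 in the others of its group), whose immediate-early score was 4.77 (5.64 to 6.199). In Brd1+/- vehicle replicate 6 the choroid plexus gene Ttr reached 3806 TPM against a median of 0.125, and the score of 12 striatal markers was 6.35 against 2.53 to 3.58 in the other libraries. Oligodendrocyte scores were higher still in WT IMN replicate 7 (7.39) and Brd1+/- IMN replicate 6 (7.29), the latter with the lowest immediate-early (4.62), microglia (4.51) and striatal (2.53) scores of all. Comparisons are given without the first pair, and without all 4, where the result changes. In punches of tissue, fewer cells of a type and less RNA per cell cannot be told apart. A comparison between genotypes and one between treatments share the libraries of a group, and the comparisons over both use all 36, so they are not independent of one another.

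All 45 members were above 0 TPM in every library. The median member had a mean of 26.9 TPM, at percentile 77.9 of the genes tested, whose median was 4.65 TPM. Of the 45, 44 had a mean of at least 1 TPM, 40 of at least 10 TPM and 4 of at least 100 TPM. The coefficient of variation over the 36 libraries had a median of 14.6% for members of at least 10 TPM, as it did for the 10076 genes of that level.

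**Figure D1:**
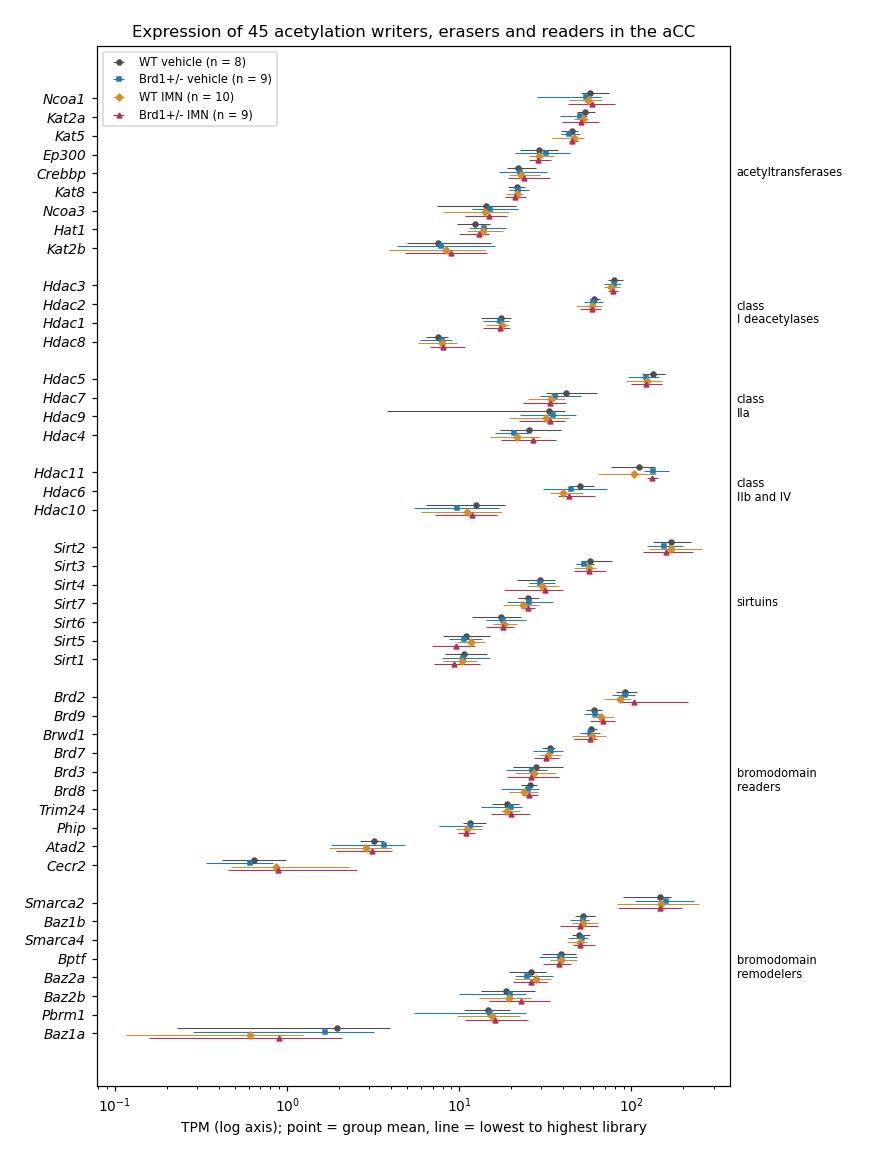
TPM of the 45 members on a log axis, arranged by class, with a point for the mean of each of the 4 groups and a line from its lowest to its highest library. By mean over all libraries, Sirt2 (163.1 TPM), Smarca2 (149.9 TPM), Hdac5 (124.5 TPM) and Hdac11 (119.5 TPM) lie highest, and Baz1a (1.24 TPM) and Cecr2 (0.755 TPM) lie lowest with the widest relative spread.

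Among the acetyltransferases, Ncoa1, a coactivator of nuclear receptors, had the highest mean (56.6 TPM) and Kat2b, the PCAF acetyltransferase, the lowest (8.19 TPM). Kat2a (GCN5, the catalytic subunit of SAGA) was at 51.7 TPM and Kat5 (TIP60, of the NuA4 complex) at 44.9 TPM. The paralogous coactivators Ep300 (29.7 TPM) and Crebbp (22.8 TPM) lay close together, and the ratio of Crebbp to Ep300 had a median of 0.765 over the libraries. Kat8 (MOF, which acetylates histone H4) was at 21.6 TPM, Ncoa3 at 14.6 TPM and Hat1, which acetylates newly made H4, at 13.3 TPM. Kat2a exceeded Kat2b in every library, by a ratio of 2.93 to 14.0.

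Of the class I deacetylases, Hdac3, the catalytic subunit of the NCoR and SMRT corepressor complexes, was highest (78.0 TPM) and had the lowest coefficient of variation of all members (6.73%). Hdac2 was at 59.4 TPM and Hdac1, its partner in the Sin3, NuRD and CoREST complexes, at 17.4 TPM. Hdac1 was below Hdac2 in every library, with a ratio of 0.215 to 0.389. Hdac8 was lowest (7.87 TPM). The class IIa deacetylases, which shuttle between nucleus and cytoplasm upon phosphorylation, were led by Hdac5 (124.5 TPM), followed by Hdac7 (36.1 TPM), Hdac9 (33.4 TPM) and Hdac4 (23.5 TPM). Hdac11, the only class IV enzyme, known as a defatty-acylase as well as a deacetylase, was at 119.5 TPM. The class IIb enzymes were Hdac6, a cytoplasmic tubulin deacetylase, at 44.1 TPM and Hdac10, a polyamine deacetylase, at 11.2 TPM.

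The sirtuins spanned 163.1 TPM for Sirt2, a tubulin and histone deacetylase of myelinating cells and neurons, to 10.2 TPM for Sirt1, the nuclear enzyme. The mitochondrial members were Sirt3 (56.1 TPM), Sirt4 (30.2 TPM) and the desuccinylase Sirt5 (10.8 TPM). The nuclear Sirt7 and Sirt6 were at 24.7 and 17.9 TPM. Neighbours in this order such as Sirt5 and Sirt1 overlapped in their ranges, 6.92 to 14.99 TPM against 7.12 to 15.06 TPM.

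Among the bromodomain readers, Brd2, a BET protein that recruits the transcription machinery, was highest (93.1 TPM) and Cecr2, of an ISWI remodelling complex, lowest (0.755 TPM). Brd9, a subunit of the non-canonical BAF complex, was at 64.4 TPM and Brwd1 at 58.0 TPM. Brd7 of the PBAF complex was at 33.0 TPM, the BET protein Brd3 at 26.9 TPM, Brd8 of NuA4 at 24.9 TPM, Trim24 at 19.5 TPM, Phip at 11.3 TPM and Atad2 at 3.19 TPM. In the remodelling group the SWI/SNF ATPase Smarca2 (149.9 TPM) exceeded its paralog Smarca4 (50.5 TPM) in every library, by a ratio of 1.56 to 4.47. The ISWI partner Baz1b was at 52.0 TPM, whereas Baz1a, which pairs with SMARCA5 in the ACF and CHRAC complexes, was lowest at 1.24 TPM with a coefficient of variation of 80.9%. Bptf of the NURF complex (38.5 TPM), Baz2a (26.3 TPM), Baz2b (20.2 TPM) and Pbrm1 of PBAF (15.4 TPM) lay between.

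The first question was whether lower Brd1 goes with altered levels of other genes of the acetylation machinery. In vehicle mice, 0 of 45 members passed an adjusted p of 0.05, where 0.0% of all genes did. At an unadjusted p below 0.05 there was 1 member (2.22%), against 3.75% of all genes tested. The median log2 fold change was -0.01 over the members and -0.02 over all genes tested, and 18 members were higher and 27 lower in Brd1+/- mice. The member below that level was Hdac11.

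Hdac11 lies on chromosome 6 (GRCm38, chr6:91156665-91174692, plus strand). In WT vehicle mice it ran from 76.0 to 137.1 TPM with a median of 106.9, and in Brd1+/- vehicle mice from 118.4 to 164.2 TPM with a median of 131.7. The ranges overlapped, but 5 of 8 WT libraries lay below the lowest Brd1+/- library, and all 9 Brd1+/- libraries lay above the WT mean on the log2 scale. The difference was 0.29 on the log2(TPM + 0.5) scale (SE 0.0996, 95% interval 0.085 to 0.50, two-sided exact permutation p = 0.0093, limma adjusted p = 1.00). It kept an unadjusted p below 0.05 without each of the 17 libraries in turn, and without both libraries at the edge it was 0.21 (unadjusted p = 0.029, adjusted p = 0.722).

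Under IMN, 0 of 45 members passed the adjusted threshold between genotypes (0.0% of all genes), and 2 members (4.44%) had an unadjusted p below 0.05, against 3.23% of all genes. The medians were -0.01 over the members and 0.01 over all genes tested. Hdac11 ran from 64.0 to 139.1 TPM in WT IMN mice, with a median of 94.8, and from 123.3 to 142.3 TPM in Brd1+/- IMN mice, with a median of 132.7. Of the 10 WT libraries, 7 lay below the lowest Brd1+/- library. Hdac11 was higher by 0.41 on the log2 scale (SE 0.12, 95% interval 0.16 to 0.66, exact permutation p = 0.0054, limma adjusted p = 1.00), and 9 of 9 Brd1+/- libraries lay above the WT mean. Without the IMN libraries of the 4 it was 0.39 (unadjusted p = 0.0085), and Hdac4 then came below 0.05 as well, at 0.37 (SE 0.17, p = 0.049, adjusted p = 1.00). The libraries of this comparison are other mice than those of the vehicle comparison.

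Sirt5, which removes succinyl and malonyl groups in mitochondria, was the other member. It ran from 9.69 to 14.0 TPM in WT IMN mice (median 11.7) and from 6.92 to 12.4 TPM in Brd1+/- IMN mice (median 9.08). Of the 9 Brd1+/- libraries, 6 lay below every WT library. The log2 difference was -0.29 (SE 0.10, 95% interval -0.50 to -0.08, exact permutation p = 0.0118, limma adjusted p = 1.00). In vehicle mice Sirt5 differed by -0.03 between genotypes (95% interval -0.25 to 0.19), and the interaction of genotype and treatment for Sirt5 was -0.26 (95% interval -0.56 to 0.04, unadjusted limma p = 0.085).

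Over both treatments, with the 4 groups in a single model, 0 members passed the adjusted threshold and 0.00391% of all genes did, a single gene that was Brd1 itself. At an unadjusted p below 0.05 there were 2 members (4.44%) against 3.64% of all genes. Hdac11 was at 127.4% of WT (log2 0.35, SE 0.081, 95% interval 0.19 to 0.51, unadjusted p = 0.000117, limma adjusted p = 0.386) and ranked 6 of 25572 genes by p. It had an unadjusted p below 0.05 in 11 of 11 alternative analyses, with adjusted p between 0.351 and 0.789, and without each of the 36 libraries in turn, with adjusted p between 0.245 and 0.703. Without both libraries at the edge it was 0.31 (adjusted p = 0.625), and without all 4 it was 0.30 (adjusted p = 0.789). Sirt5 differed by -0.16 (SE 0.073, limma adjusted p = 1.00), and its unadjusted p of 0.038 became 0.082 without WT vehicle replicate 1, 0.080 without both libraries at the edge (-0.13) and 0.052 without all 4 (-0.15). It stayed below 0.05 in 25 of the 36 leave-one-out fits. Within the groups, Hdac11 had a Pearson r of at most 0.20 in size with each of 6 marker scores and the mitochondrial share. These measures of the punch are described below. Markers of cortical excitatory cells and of interneurons were not related to the members, so a part of neuronal makeup in this difference was not tested.

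**Figure D2:**
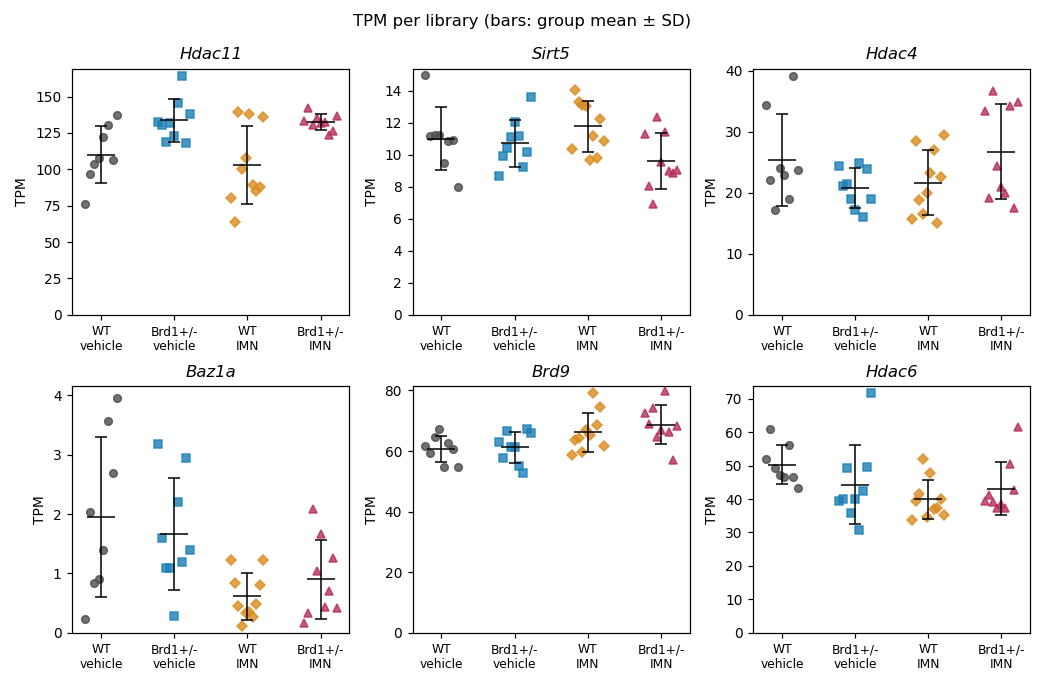
TPM of Hdac11, Sirt5, Hdac4, Baz1a, Brd9 and Hdac6 in the 4 groups, with a point for each library and a bar for the group mean with its SD. Hdac11 is higher in both Brd1+/- groups (means of 133.6 and 132.4 TPM) than in both WT groups (109.9 and 102.8 TPM), and Baz1a is lower in both IMN groups (0.610 and 0.898 TPM) than in both vehicle groups (1.95 and 1.66 TPM).

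The spread of Hdac11 also differed in size between the groups. Its SD was 26.7 TPM in WT IMN mice and 5.58 TPM in Brd1+/- IMN mice, with 19.6 and 14.6 TPM in the WT and Brd1+/- vehicle mice. No test of this difference in spread was made.

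The second question was whether IMN goes with altered levels. In WT mice 0 members passed the adjusted threshold (0.0% of all genes), and 3 members (6.67%) had an unadjusted p below 0.05 against 6.6% of all genes. All 3 were lower under IMN. The medians were -0.01 over the members and -0.01 over all genes tested.

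Hdac6 ran from 43.2 to 60.9 TPM in WT vehicle mice (median 48.2) and from 33.6 to 52.0 TPM in WT IMN mice (median 38.4). Of the 10 IMN libraries, 8 lay below every vehicle library. The log2 difference was -0.34 (SE 0.086, 95% interval -0.52 to -0.16, exact permutation p = 0.0022, limma adjusted p = 0.395). In Brd1+/- mice Hdac6 ran from 30.7 to 71.6 TPM with vehicle and from 37.4 to 61.5 TPM with IMN, a difference of -0.02 (95% interval -0.29 to 0.25). The interaction for Hdac6 was 0.32 (95% interval -0.01 to 0.64, unadjusted limma p = 0.058).

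Baz1a ran from 0.230 to 3.96 TPM in WT vehicle mice (median 1.71) and from 0.115 to 1.23 TPM in WT IMN mice (median 0.466). The highest 5 of the 8 vehicle libraries lay above every IMN library, while the lowest vehicle value belonged to WT vehicle replicate 1. On the log2 scale IMN was at -1.002 from vehicle (SE 0.31, 95% interval -1.65 to -0.35, exact permutation p = 0.0093, limma adjusted p = 0.554). Of the 10 IMN libraries, all 10 lay below the vehicle mean. At this level the pseudocount of 0.5 TPM shrinks the fold: with a pseudocount of 0.1 the difference was -1.38. Baz1a shares 372 bases on the same strand with the predicted gene Gm20403, at a mean of 0.735 TPM, so reads of these genes can be split between them.

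Hdac7, a class IIa enzyme, was at 31.8 to 63.4 TPM in WT vehicle mice (median 41.8) and at 25.1 to 41.3 TPM in WT IMN mice (median 34.3), with 4 vehicle libraries above every IMN library. The log2 difference was -0.27 (SE 0.12, exact permutation p = 0.034, limma adjusted p = 0.711). It kept an unadjusted p below 0.05 in 14 of 18 leave-one-out fits, and without WT vehicle replicate 1 it was -0.19 with an unadjusted limma p of 0.073. Without that library and WT IMN replicate 7 it was -0.20 with 0.066. Hdac7 shares 29 bases with Slc48a1 on the other strand (98.8 TPM), and the use of strand in the counting was not given.

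In Brd1+/- mice 0 members passed the adjusted threshold between IMN and vehicle, as did 0.00782% of all genes, and 3 members (6.67%) had an unadjusted p below 0.05 against 5.52% of all genes. The medians were 0.00 over the members and 0.01 over all genes. Brd9 ran from 52.7 to 67.4 TPM with vehicle (median 61.3) and from 57.1 to 80.0 TPM with IMN (median 68.1), and 5 IMN libraries lay above every vehicle library. Brd9 was higher by 0.17 on the log2 scale (SE 0.064, exact permutation p = 0.016, limma adjusted p = 0.826).

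Baz1a in Brd1+/- mice ran from 0.283 to 3.19 TPM with vehicle (median 1.40) and from 0.158 to 2.08 TPM with IMN (median 0.708), and the ranges overlapped widely. The log2 difference was -0.64 (SE 0.30, exact permutation p = 0.064, limma adjusted p = 0.888). Hdac4 ran from 16.1 to 24.9 TPM with vehicle (median 21.2) and from 17.5 to 36.6 TPM with IMN (median 24.4). Its difference was 0.32 (SE 0.15, exact permutation p = 0.063, limma adjusted p = 0.888), and 4 IMN libraries lay above every vehicle library. Both members had an unadjusted limma p of 0.046, which passed 0.05 in 8 of 18 leave-one-out fits for Baz1a and in 7 of 18 for Hdac4. With the oligodendrocyte and striatal scores as covariates, Hdac4 was at 0.43 (p = 0.0086), while Baz1a (-0.46, p = 0.144) and Brd9 (0.14, p = 0.055) no longer had an unadjusted p below 0.05, and Crebbp did (0.21, p = 0.044, adjusted p = 0.725). Without replicate 6 of both Brd1+/- groups, Hdac4 was at 0.40 (p = 0.021), Baz1a at -0.53 (p = 0.123) and Brd9 at 0.12 (p = 0.073).

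Over both genotypes, 0 members passed the adjusted threshold between IMN and vehicle where 0.254% of all genes did (65 genes), and 4 members (8.89%) had an unadjusted p below 0.05 against 9.24% of all genes. The share of members was therefore near that of all genes. Baz1a was at 56.7% of vehicle (log2 -0.82, SE 0.22, 95% interval -1.27 to -0.37, limma adjusted p = 0.118). Without WT vehicle replicate 1 its difference was -0.93 with an adjusted p of 0.0270, and without both libraries at the edge of the tissue range it was -0.90 with an adjusted p of 0.0380. Without all 4 that stood apart it was -0.85 with an adjusted p of 0.0868, so its side of the threshold turns on which libraries are kept. Brd9 was higher by 0.14 (SE 0.043, 95% interval 0.056 to 0.23, adjusted p = 0.169), and after quantile normalization by 0.17 with an adjusted p of 0.0476. Without both libraries at the edge Brd9 was higher by 0.14 (adjusted p = 0.1875), and without all 4 by 0.11 (adjusted p = 0.3195). Hdac6 differed by -0.18 (SE 0.080, adjusted p = 0.483) and Hdac7 by -0.19 (SE 0.088, adjusted p = 0.510), with an unadjusted p below 0.05 in 28 and 22 of the 36 leave-one-out fits. Without both libraries at the edge Hdac7 was at -0.16 (p = 0.067, adjusted p = 0.475) and the reader Cecr2, named here after its values were seen, at 0.26 (SE 0.13, p = 0.0497, adjusted p = 0.428). Without all 4 these were at -0.18 (p = 0.039) and 0.26 (p = 0.061).

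Of the 13 immediate-early genes listed as markers of recent neuronal activity, 13 were lower under IMN over both genotypes, and 3 of them passed the adjusted threshold. Their summed level ran from 768.2 to 1607.4 TPM in WT vehicle mice, from 1019.7 to 1658.7 TPM in Brd1+/- vehicle mice, from 687.4 to 1275.4 TPM in WT IMN mice and from 549.1 to 1230.9 TPM in Brd1+/- IMN mice, and none of the 13 was at 0 in a library. All 10 oligodendrocyte markers were higher under IMN, by a median of 0.41 on the log2 scale, and 0 passed the adjusted threshold. Their summed level ran from 176.2 to 2709.6 TPM in WT vehicle mice and from 216.6 to 3342.4 TPM in WT IMN mice. The corresponding ranges in Brd1+/- mice were 223.9 to 1701.7 TPM with vehicle and 210.1 to 3266.6 TPM with IMN. The part of either list in the values of Baz1a, Brd9, Hdac6 and Hdac7 was not tested, apart from a fit with the oligodendrocyte and striatal scores as covariates. Over both genotypes it kept all 4 members at an unadjusted p below 0.05. Baz1a was then smaller in size, at -0.66 (limma adjusted p = 0.2355), and Brd9 was at 0.13 (adjusted p = 0.2695). Hdac6 was at -0.20 (adjusted p = 0.442) and Hdac7 at -0.23 (adjusted p = 0.384). In Brd1+/- mice alone that fit did not keep Baz1a and Brd9 below 0.05, as given above.

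The third question was whether the response to IMN differs by genotype. For the interaction, 0 members passed the adjusted threshold (0.0% of all genes), and 1 member (2.22%) had an unadjusted p below 0.05 against 3.2% of all genes. This was Hdac4, at 0.53 on the log2 scale (SE 0.23, 95% interval 0.064 to 0.99, unadjusted p = 0.027, limma adjusted p = 1.00). Hdac4 differed by -0.21 between IMN and vehicle in WT mice (17.2 to 39.1 TPM with vehicle and 15.1 to 29.4 TPM with IMN), and by 0.32 in Brd1+/- mice. With the oligodendrocyte and striatal scores as covariates, the interaction was 0.64 (limma p = 0.0088, adjusted p = 0.998). In such fits Hdac4 differed by -0.36 under IMN in WT mice (p = 0.016, adjusted p = 0.511). Between genotypes it differed by -0.32 with vehicle (p = 0.041, adjusted p = 0.981) and by 0.32 under IMN (p = 0.046, adjusted p = 0.9999). The interaction was 0.43 with an unadjusted p of 0.059 without WT vehicle replicate 7, and 0.46 with 0.052 without WT vehicle replicate 1, and stayed below 0.05 without each of the other 34 libraries. Without both libraries at the edge it was 0.49 (p = 0.042), and Sirt5 then had an interaction of -0.32 (SE 0.14, p = 0.037, adjusted p = 0.992). Without all 4 the interaction was 0.58 for Hdac4 (p = 0.021), -0.35 for Sirt5 (p = 0.023) and 0.62 for Hdac10 (p = 0.049), each with an adjusted p of 0.865.

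**Figure D3:**
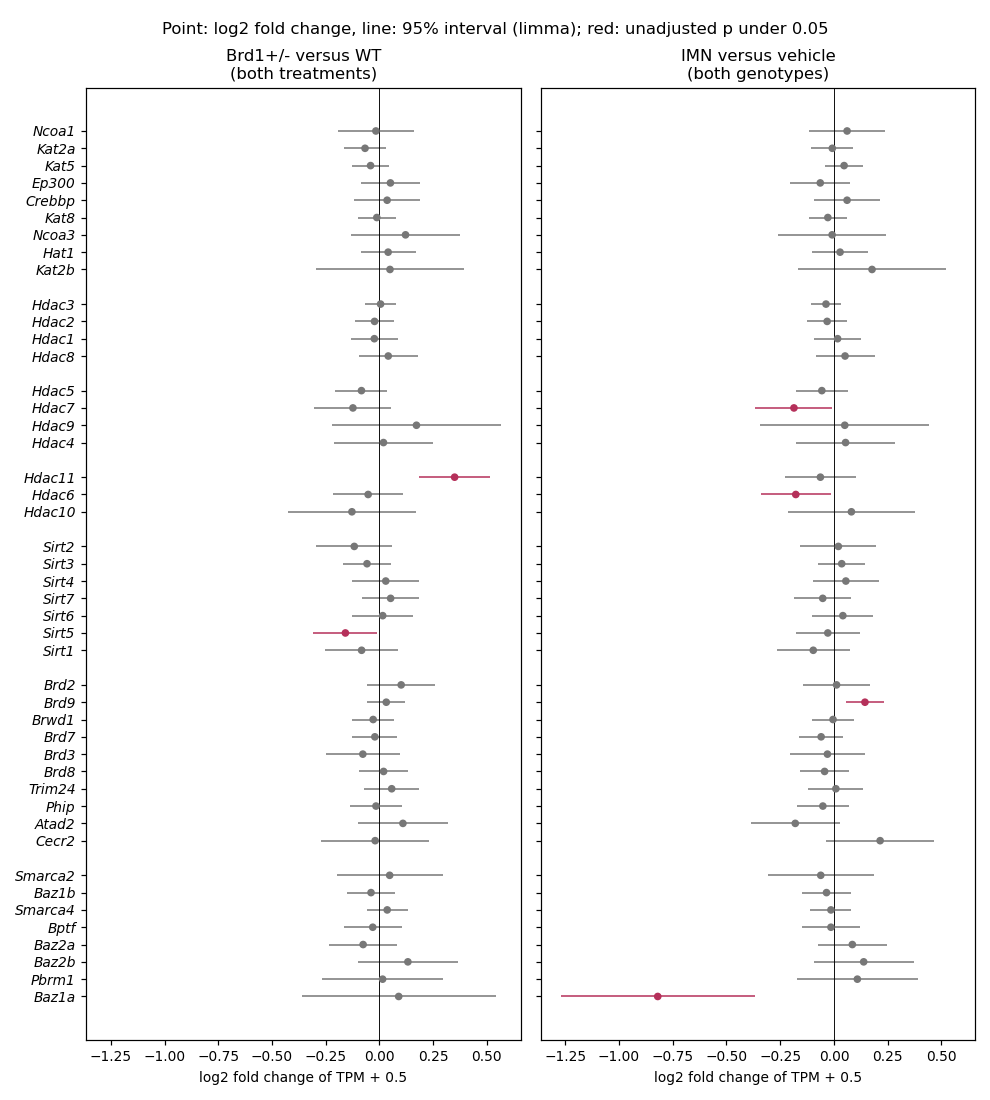
Log2 fold change on the log2(TPM + 0.5) scale with its 95% interval for each of the 45 members, between genotypes over both treatments and between IMN and vehicle over both genotypes. Hdac11 stands highest between genotypes at 0.35, and Baz1a lies lowest between treatments at -0.82 with an interval from -1.27 to -0.37.

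The precision of these comparisons limits what could be seen. The median standard error over the members was 0.11 for the vehicle genotype comparison and 0.073 for the comparisons over all 36 libraries. Between genotypes over both treatments, the 95% interval lay within a log2 change of 1 in either direction for 45 of 45 members and within 0.5 for 42. Between treatments over both genotypes, these counts were 44 and 43, and for the interaction 43 and 30.

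The 3 deacetylases of classes IIb and IV, in which Hdac11 is most abundant, summed to 172.6 ± 17.4 TPM (SD, n = 8) in WT vehicle mice and to 187.6 ± 19.1 TPM (SD, n = 9) in Brd1+/- vehicle mice. Under IMN the sums were 153.7 ± 27.7 TPM (SD, n = 10) in WT mice and 187.3 ± 11.4 TPM (SD, n = 9) in Brd1+/- mice. Over all 36 libraries the sums were 263.4 ± 19.0 TPM for the acetyltransferases, 162.8 ± 7.95 TPM for class I, 217.6 ± 19.3 TPM for class IIa, 313.0 ± 37.6 TPM for the sirtuins, 335.0 ± 27.8 TPM for the readers and 354.1 ± 47.3 TPM for the remodelling group. All 45 members together summed to 1820.6 ± 95.7 TPM (SD, n = 36).

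Ratios between paralogs, taken as differences of log2(TPM + 0.5) and so touched by library scaling only through the pseudocount, which weighs most for Baz1a, were compared for 9 pairs in the 4 comparisons between groups. Of the 36 exact permutation tests, 0 passed after Benjamini-Hochberg adjustment over the 36 tests. The smallest p was that of Baz1a to Baz1b between WT IMN and WT vehicle mice, with mean log2 ratios of -5.65 and -4.65 (exact permutation p = 0.012, adjusted p = 0.439). Median ratios over the libraries were 4.10 for Ncoa1 to Ncoa3, 0.175 for Hdac4 to Hdac5, 3.44 for Brd2 to Brd3, 1.28 for Baz2a to Baz2b and 0.0190 for Baz1a to Baz1b.

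A further 62 genes act with these enzymes and readers: acetyl-CoA and NAD+ supply, corepressor and acetyltransferase complexes, other acetyl-lysine readers and BAF subunits. All 62 were tested, and 0 passed the adjusted threshold in any of the 7 comparisons. At an unadjusted p below 0.05 there were 7 in WT mice under IMN (1 higher and 6 lower, 11.3%) against 6.6% of all genes, and 6 under IMN over both genotypes (1 higher and 5 lower, 9.68%) against 9.24%. The median over the 62 genes was -0.05 in the first of these and -0.03 in the second, beside -0.01 and 0.00 over all genes tested. The genotype comparisons gave 2 with vehicle, 1 with IMN and 2 over both treatments, IMN in Brd1+/- mice gave 1, and the interaction gave 0. Ep400, the ATPase of the complex that holds Kat5, was at 36.3 ± 5.33 TPM in Brd1+/- IMN mice and 28.9 ± 4.31 TPM in WT IMN mice, a log2 difference of 0.33 (SE 0.094, unadjusted limma p = 0.0023, adjusted p = 1.00). Nmnat2, which makes NAD+ in axons, differed by -0.15 between IMN and vehicle over both genotypes (SE 0.054, adjusted p = 0.310).

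Members were also related to the makeup of the punch. Scores of 6 marker lists and the share of mitochondrially encoded transcripts (21.7 to 30.5% of TPM) were related to each gene over the 36 libraries after the group means were removed. Oligodendrocyte markers ran over the widest range, and 7 members (15.6%) had a relation with that score at a limma p adjusted over all genes below 0.05, 4 positive and 3 negative, against 14.5% of all genes. The share of members was thus close to that of all genes. Without both libraries at the edge of the tissue range it was 7 members against 10.3% of all genes.

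Kat2b, which was lowest among the acetyltransferases, followed the oligodendrocyte score most closely (Pearson r = 0.75, Spearman rho = 0.79, permutation p = 1e-05 for each, which is the smallest that the permutations can give). Its limma adjusted p was 1.03e-05, and r was 0.74 without the 2 farthest libraries. Hdac9 ran the other way (r = -0.71, rho = -0.71, permutation p = 1e-05 for each, limma adjusted p = 4.97e-05, r = -0.69 without the 2 farthest libraries). In WT vehicle replicate 1, the library with the highest oligodendrocyte score of its group, Hdac9 was at 3.81 TPM against 33.7 to 41.3 TPM in the other 7, and without both libraries at the edge its r was -0.79. Smarca2 also ran against the score (r = -0.71, permutation p = 2e-05; rho = -0.73, permutation p = 1e-05; limma adjusted p = 6.85e-05; r = -0.66 without the 2 farthest libraries).

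Sirt2, a sirtuin of myelin, was higher where the same score was higher (r = 0.68, permutation p = 2e-05; rho = 0.57, permutation p = 0.00099; limma adjusted p = 0.000258; r = 0.56 without the 2 farthest libraries). Sirt3, Sirt5 and Trim24 were the other members past the threshold, with r of 0.64, 0.56 and -0.53. The relation of Sirt5 did not pass without both libraries at the edge (adjusted p = 0.065). As Sirt2 and Sirt3 overlap expressed genes on the opposite strand, Nfkbib (38.3 TPM) for Sirt2 and Ric8a (46.8 TPM) and Psmd13 (67.4 TPM) for Sirt3, their values may hold reads of these genes. The same holds for Kat5, which shares 4006 bases with Rnaseh2c (23.7 TPM) on the other strand, for Brd2 with H2-DMa (20.8 TPM), for Ncoa3 with Sulf2 (106.7 TPM) and for Hat1 with the pseudogene Gm13642 (14.9 TPM). It holds too for Pbrm1, which shares 33461 bases with Smim4 (11.7 TPM) and 15 with Gnl3 (22.4 TPM) on the other strand. Sirt7 shares 124 bases with Mafg (60.1 TPM) on the same strand, so reads can be split between them.

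**Figure D4:**
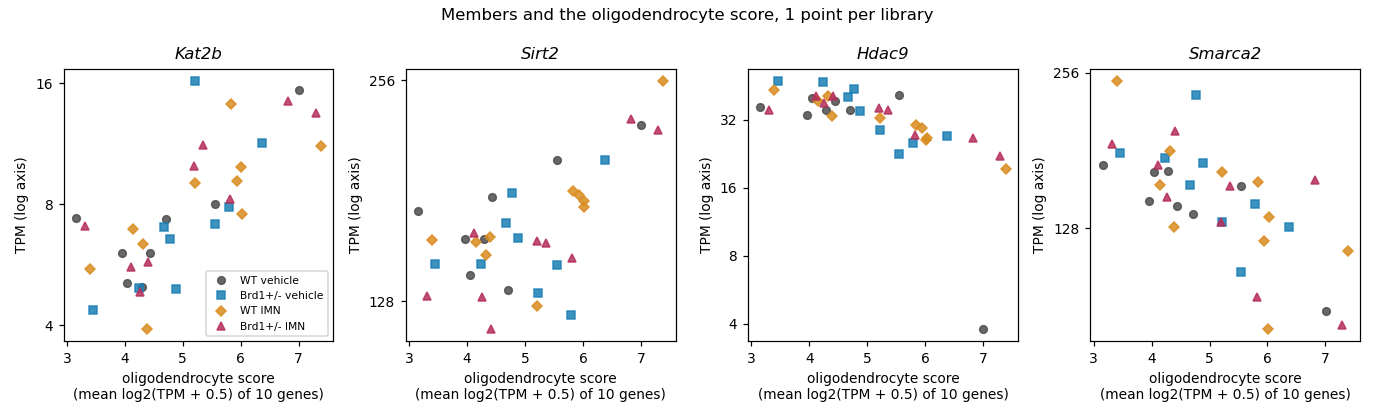
TPM on a log axis of Kat2b, Sirt2, Hdac9 and Smarca2 against the oligodendrocyte score, the mean log2(TPM + 0.5) of 10 markers, with a point for each of 36 libraries marked by group. With the group means removed, Kat2b (r = 0.75) and Sirt2 (r = 0.68) climb with the score, and Hdac9 (r = -0.71) and Smarca2 (r = -0.71) descend, with a single WT vehicle library far below the others for Hdac9.

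The sequences around a gene start of Hdac11, the member that differed most between genotypes, and of Kat2b and Hdac9, the members most closely related to the oligodendrocyte score in each direction, are shown for reference. Each is the RefSeq window from 250 bases before to 50 after a gene start on GRCm38.p6, read 5′ to 3′ on the gene's strand, with the GC box GGGCGG (either strand) in capitals. The windows are chr6:91156565-91156864 (plus) for Hdac11, chr17:53566721-53567020 (plus) for Kat2b and chr12:34917046-34917345 (minus) for Hdac9, and for Kat2b and Hdac9 it is the one of 2 windows nearest the annotated start. The start used by the window lies 150 bases from the start annotated in GENCODE for Hdac11, 110 for Kat2b and 0 for Hdac9.
Hdac11: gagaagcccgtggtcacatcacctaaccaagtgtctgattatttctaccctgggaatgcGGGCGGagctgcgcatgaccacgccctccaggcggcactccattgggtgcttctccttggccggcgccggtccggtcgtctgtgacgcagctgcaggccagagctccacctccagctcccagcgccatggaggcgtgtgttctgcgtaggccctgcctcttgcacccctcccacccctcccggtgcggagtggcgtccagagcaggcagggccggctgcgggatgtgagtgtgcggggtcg
Kat2b: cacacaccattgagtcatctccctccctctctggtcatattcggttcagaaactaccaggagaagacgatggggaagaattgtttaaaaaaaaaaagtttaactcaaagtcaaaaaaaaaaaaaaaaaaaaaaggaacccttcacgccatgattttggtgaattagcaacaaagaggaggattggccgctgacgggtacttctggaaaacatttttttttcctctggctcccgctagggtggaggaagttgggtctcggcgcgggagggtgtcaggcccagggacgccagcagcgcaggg
Hdac9: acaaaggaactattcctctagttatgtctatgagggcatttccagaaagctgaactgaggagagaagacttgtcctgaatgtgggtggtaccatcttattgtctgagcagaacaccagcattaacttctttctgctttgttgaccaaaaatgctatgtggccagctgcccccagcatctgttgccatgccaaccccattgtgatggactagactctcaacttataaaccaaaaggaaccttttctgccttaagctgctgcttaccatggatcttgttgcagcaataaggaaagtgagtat
The Hdac11 window holds 1 GC box and 22 CG pairs at a GC content of 66.7%. The Kat2b window holds 0 GC boxes and 11 CG pairs at 47%, and the Hdac9 window 0 of either at 44%. Windows of 300 bases were found for 37 of the 45 members, 50 windows in all, and 68.0% of these held a GC box against 35.7% of the 32851 windows in the table. The median number of CG pairs was 24 in the members' windows and 7 in all windows. The cyclic AMP response element TGACGTCA was in 2.0% of the members' windows and 1.79% of all windows. These letters are a description of the windows and not of bound sites.

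Other scores gave fewer relations. With the astrocyte score 3 members (6.67%) passed against 9.1% of all genes, and 0 without both libraries at the edge against 7.19%. Sirt5 (r = -0.53, rho = -0.47, permutation p = 0.00097 and 0.0069), Baz1a (r = 0.50, rho = 0.51, permutation p = 0.00097 and 0.0020) and Smarca2 (r = 0.49, rho = 0.44, permutation p = 0.0060 and 0.012) led it, and without the 2 farthest libraries r was -0.46, 0.55 and 0.28. With the microglia score 6 members (13.3%) passed against 13.0% of all genes, and 3 without both libraries at the edge against 8.38%. Smarca2 (r = 0.62, rho = 0.50), Sirt5 (r = -0.59, rho = -0.53) and Sirt3 (r = -0.56, rho = -0.45) led it, with permutation p of r of 0.00018, 0.00045 and 0.00092 and of rho of 0.0031, 0.0019 and 0.0076. Their r was 0.47, -0.49 and -0.39 without the 2 farthest libraries.

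With the endothelial score 3 members (6.67%) passed against 7.99% of all genes, and 2 without both libraries at the edge against 5.73%. Baz1a was the strongest (r = 0.60, rho = 0.60, permutation p = 0.00012 and 0.00024, limma adjusted p = 0.0055), with r = 0.59 without the 2 farthest libraries. Sirt5 followed at r = -0.50 (rho = -0.45, permutation p = 0.0019 and 0.0075) and Hdac1 at r = 0.48 (rho = 0.41, permutation p = 0.0039 and 0.019), whose limma adjusted p of 0.064 did not pass. Their r was -0.55 and 0.47 without the 2 farthest libraries. Of the 6 endothelial markers 5 were higher under IMN over both genotypes, and 0 passed the adjusted threshold. A part of endothelial makeup in the difference of Baz1a under IMN was not tested.

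With the immediate-early score 5 members (11.1%) passed against 9.79% of all genes, and 2 without both libraries at the edge against 3.12%. Hdac9 (r = 0.75, rho = 0.55, permutation p = 3e-05 and 0.00051), Smarca2 (r = 0.65, rho = 0.52, permutation p = 8e-05 and 0.0023) and Sirt3 (r = -0.59, rho = -0.39, permutation p = 0.0022 and 0.026) led it. Without the 2 farthest libraries r was 0.53, 0.49 and -0.33. By permutation p adjusted over all members and scores, 5 immediate-early relations passed, and 1 of them still did without those libraries. These counts were 4 and 1 for the astrocyte score, 7 and 1 for microglia and 5 and 3 for endothelial. They were 7 and 7 for oligodendrocyte, 2 and 1 for striatal, and 6 and 3 for the mitochondrial share. The share of all genes by this permutation test was not taken, so these counts cannot be read as a result about the members. With the striatal score 0 members (0.0%) passed against 1.6% of all genes, and 2 (4.44%) without both libraries at the edge against 5.41%. Crebbp had the largest r (0.51, rho = 0.32, permutation p = 0.0048 and 0.040), which was 0.20 without the 2 farthest libraries. Hat1 and Brd7 each had r = 0.42 (rho = 0.22 and 0.36, permutation p of r 0.034 and 0.033 and of rho 0.18 and 0.024), which became 0.24 and 0.25.

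With the mitochondrial share 6 members (13.3%) passed against 8.94% of all genes, all 6 negative, and 6 without both libraries at the edge against 8.27%. They were Kat5, Sirt6, Kat2a, Smarca4, Kat8 and Hdac3. Kat5 (r = -0.67, rho = -0.56, permutation p = 0.00020 and 0.0012), Sirt6 (r = -0.63, rho = -0.74, permutation p = 2e-05 and 1e-05) and Kat2a (r = -0.60, rho = -0.68, permutation p = 1e-05 and 2e-05) led it, with r of -0.51, -0.61 and -0.62 without the 2 farthest libraries. TPM values of a library sum to a fixed total, so the mitochondrial share and the values of other genes are not independent. A positive relation was found for 82 of the 2286 genes past the threshold over all genes.

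**Figure D5:**
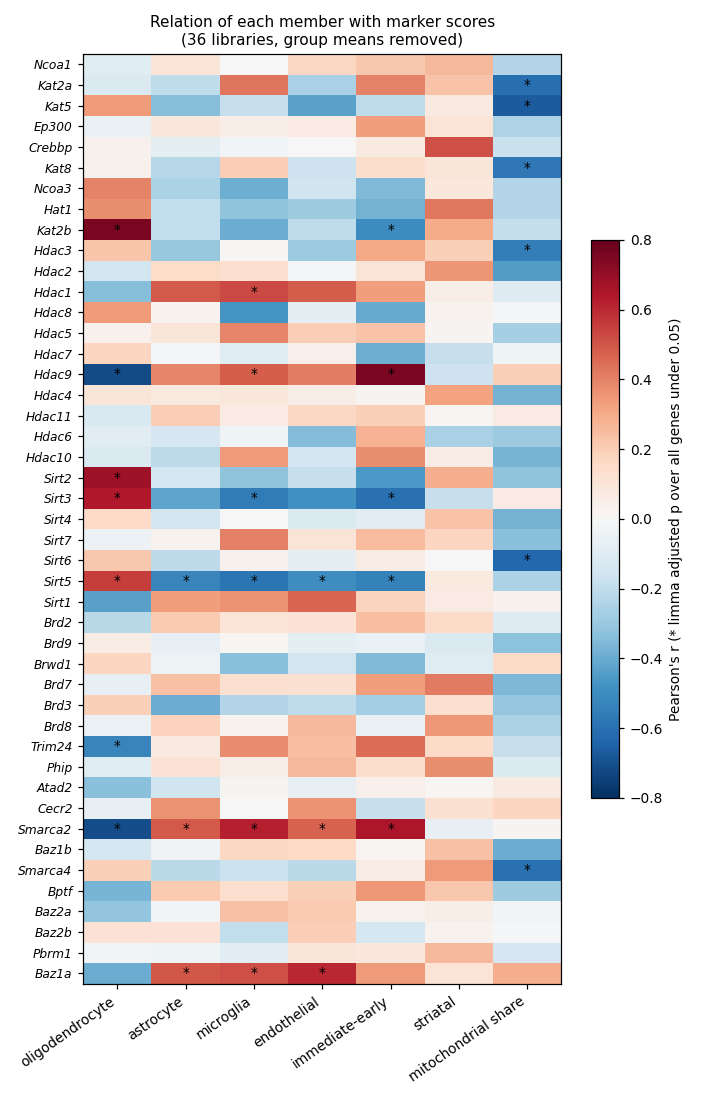
Pearson r over 36 libraries, group means removed, between each of the 45 members and 6 marker scores and the mitochondrial share, with an asterisk where the limma p adjusted over all genes is below 0.05. The oligodendrocyte column holds 7 asterisks, 4 positive and 3 negative, and the 6 in the mitochondrial column are all negative.

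Brd1 itself was related to the other genes in the same way. Pearson r with the 45 members ran from -0.30 to 0.47 with a median of 0.21, and 40 of the 45 (88.9%) were positive in the limma fit, where 67.4% of all other genes tested were. After adjustment over all genes 0 members passed (0.0%), against 0.497% of all genes. At an unadjusted limma p below 0.05 there were 11 members (24.4%), all 11 positive, against 15.5% of all genes. Of the 3975 genes behind that 15.5%, 3468 were positive too. The members lay at a median percentile of 77.9 by level, and no comparison was made with genes of like level. The largest r was that of Smarca4, the ATPase of the BAF complex (r = 0.47, permutation p = 0.0066; rho = 0.47, permutation p = 0.0052), which was 0.39 without the 2 farthest libraries. The 45 relations share the same libraries and the same Brd1 values.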

How the data were processed

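The values were deposited by the authors as a table of TPM per gene for the 36 aCC libraries, and 0 columns of values were left unmatched. Per the labels and the study's methods, BGI libraries were aligned to GRCm38 with HISAT2 2.1.0 and quantified with StringTie 1.3.4 after FastQC and Trimmomatic. The study's methods state a minimum number of clean reads per sample, but the depth of each library cannot be had from TPM. No count test was therefore run and no counting interval is given. The setting for strand is not given in the sources used here.

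The filter on low values asked for 0.1 TPM or more in 8 or more libraries, and genes that passed were tested on log2(TPM + 0.5) with limma 3.58.1 (trend, R 4.3.3), two-sided, with Benjamini-Hochberg adjustment over all 25572 genes. Pairwise fits held the 2 groups compared, and pooled and interaction contrasts held all 36 libraries with equal weight to each group. Exact permutation tests and 100000 permutations of libraries within groups used Python 3.11.15, numpy 2.4.6 and scipy 1.17.1, tables pandas 2.3.3 and figures matplotlib 3.10.9. Symbols, positions and overlaps came from GENCODE M21. The exact permutation test was checked on simulated data and the Benjamini-Hochberg adjustment on fixed values. The limma fits had a check of their own.

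The members and gene lists were chosen with earlier results of these data known. Members with an unadjusted p below 0.05 in a comparison were described in full, the highest and lowest of each class were named, as were the 3 members with the largest r for each marker score and partner genes with an unadjusted p below 0.01. Alternatives were pseudocounts of 0.1 and 1, no filter, quantile normalization, median-ratio scaling, a minimum mean of 1 TPM, rescaling without mitochondrial genes, marker scores as covariates, a replicate block, a single fit, exact tests and leaving out each library. Leaving out both libraries at the edge of the tissue range, leaving out all 4 libraries that stood apart, the relation fits over all genes and relations with Brd1 were added after seeing the data.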

Additional observations from a re-analysis of the deposited data

Results flagged for a closer look

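In the 4 groups of the 45 members, 180 sets of values, 18 held a library far from the others by Dixon's test at the 95% level. A nominal rate of 1 in 20 sets would be 9 here. The sets share the same libraries, and the share over all genes was not taken. The count can therefore not be read as a result about the members. WT vehicle replicate 1 accounted for 4 of them and Brd1+/- vehicle replicate 7 for 3.

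In WT vehicle replicate 1, Hdac9 was at 3.81 TPM (33.7 to 41.3 TPM in the others of its group), Smarca2 at 88.7 TPM (136.3 to 170.1 TPM), Kat2b at 15.4 TPM (4.97 to 7.99 TPM) and Sirt3 at 77.0 TPM (50.9 to 59.2 TPM). These are 4 of the members related to the oligodendrocyte score, which was 7.00 in that library. In Brd1+/- vehicle replicate 7, the coactivator Ncoa1 was at 28.1 TPM (45.4 to 66.5 TPM), Atad2 at 1.79 TPM (3.23 to 4.85 TPM) and Trim24 at 13.3 TPM (18.1 to 23.2 TPM). In WT vehicle replicate 7, Ncoa1 was at 74.1 TPM (50.7 to 60.4 TPM).

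Among the readers, Brd2 reached 212.4 TPM in Brd1+/- IMN replicate 8 (86.1 to 95.7 TPM in the others), the same library in which Sirt4 was at 18.2 TPM (27.8 to 40.3 TPM). Cecr2 was at 2.28 TPM in WT IMN replicate 3 (0.475 to 0.925 TPM) and at 2.55 TPM in Brd1+/- IMN replicate 3 (0.453 to 0.972 TPM). Brwd1 was at 46.6 TPM in Brd1+/- IMN replicate 2 (55.2 to 62.8 TPM) and Baz2a at 35.1 TPM in Brd1+/- vehicle replicate 1 (21.04 to 27.12 TPM). Of the enzymes, Kat2a was at 38.3 TPM in Brd1+/- vehicle replicate 2 (49.2 to 55.1 TPM), Hdac1 at 13.7 TPM in Brd1+/- vehicle replicate 4 (16.6 to 19.5 TPM), Kat5 at 34.4 TPM in WT IMN replicate 1 (43.2 to 52.9 TPM) and Sirt2 at 255.5 TPM in WT IMN replicate 7 (126.1 to 180.6 TPM).

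The change of Hdac4 under IMN differed between the genotypes by an interaction of 0.53 on the log2 scale at an unadjusted limma p of 0.027, with an adjusted p of 1.00.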

How the results depend on the processing

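No value changed direction under the alternatives run. Of the counts recomputed under them 511 were within 1.5 times the count reported and 50 were not. The counts at an adjusted p below 0.05 and that of the paralog ratios were 0 as reported. Where these stayed at 0, they are among the 511. Named members lost an unadjusted p below 0.05 in 82 of their alternative analyses. Hdac11 between genotypes over both treatments ran from 0.30 to 0.38 on the log2 scale. The number of members at an unadjusted p below 0.05 between genotypes with vehicle was 1, and was 3 with marker scores as covariates, 2 with the replicate block and 1 to 2 leaving out each library. For IMN in Brd1+/- mice it was 3, and 1 with no filter on low values, 1 by the exact permutation test, 1 without replicate 6 of both groups and 1 to 4 leaving out each library. For IMN in WT mice it was 3, 5 with the replicate block and 2 to 4 leaving out each library. Between genotypes over both treatments it was 2, 1 without both libraries at the edge of the tissue range, 1 without all 4 libraries that stood apart and 1 to 2 leaving out each library. For IMN over both genotypes it was 4, and 2 to 5 leaving out each library. The number at an adjusted p below 0.05 there was 0, 1 after quantile normalization (Brd9), 1 without both libraries at the edge (Baz1a), 0 without all 4 and 0 to 1 leaving out each library, the 1 being Baz1a without WT vehicle replicate 1. For the interaction the number at an unadjusted p below 0.05 was 1, and 2 with median-ratio scaling, 2 with quantile normalization, 2 with the replicate block, 2 without both libraries, 3 without all 4 and 0 to 3 leaving out each library. The share of all genes under each alternative is not given here, so a changed count cannot be read as a result about the members. Where the set of genes tested, the samples or the scaling did not by itself account for a difference, the cause was not tested. Adjusted over the 315 relations alone, 36 relations with marker scores passed by permutation. Without the 2 farthest libraries 22 passed, and 17 of the 36 were among them. The share of all genes by permutation was not taken for these counts.

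The replicate numbers are shared by the groups, but same-numbered libraries had median correlations of their deviations of -0.05 to 0.03. Of these libraries 1 of 51 correlated best with its own number. No pairing by number was seen, but low correlations cannot exclude a weaker shared factor, and what the numbers stand for is not given. The depth of each library is not known beyond the minimum stated in the study's methods. The number of reads behind members near 1 TPM, such as Baz1a and Cecr2, is therefore not known either.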
